A study of Mus musculus with 54 samples.

Results

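The 9 interferon-response genes Stat2, Irf1, Irf7, Irf9, Ifit1, Ifit3, Isg15, Gbp2 and Gbp3 were followed by RNA-seq in differentiating H2K mouse myogenic progenitors. They were taken from the tables by gene symbol and are 9 of the 19653 genes listed in the deposited tables. Each of the 9 was listed in all 27 tables, and all 9 passed the filter on low levels. The series holds 54 samples in 18 groups, which are 6 cell lines on days 0, 1 and 2 of differentiation (0, 24 and 48 h) with 3 labelled replicates per group. Wildtype and EMD-/y (emerin null) progenitors were compared with 4 lines made from EMD-/y cells by lentiviral transduction and puromycin selection. These 4 carried wildtype emerin (+EMD) or an emerin variant seen in Emery–Dreifuss muscular dystrophy (S54F, Δ95–99 or Q133H). The labels say that the mutant lines were kept in puromycin through both media. Emerin is a protein of the inner nuclear membrane. All lines were grown and plated overnight in proliferation medium with 20 units/ml of γ-interferon. The day 0 RNA was therefore taken in cells exposed to γ-interferon, which the recipe of the differentiation medium on days 1 and 2 does not list. H-2K cells as a class carry a temperature-sensitive T antigen behind the interferon-inducible H-2Kb promoter, and this is what the cytokine is added for. Every genotype here is 1 cell line, so that line and genotype cannot be told apart. The labels do not say which replicates came from separate cultures, and the study's methods describe technical replicates within biological replicates.

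Interferons act through receptors at the cell surface whose JAK kinases phosphorylate STAT proteins. γ-Interferon leads mainly to STAT dimers that bind GAS elements in target promoters. Type I interferons lead to the ISGF3 complex, which holds STAT2 and IRF9 and binds the interferon-stimulated response element (ISRE). Of the 9 genes, Stat2 and Irf9 encode ISGF3 subunits, while Irf1 and Irf7 encode induced transcription factors that extend the response. Ifit1 and Ifit3 encode antiviral proteins that act on viral RNA, Isg15 encodes a ubiquitin-like modifier, and Gbp2 and Gbp3 encode guanylate-binding proteins, GTPases known as targets of γ-interferon.

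Promoter sequences are shown because ISRE and GAS elements are the sites through which interferon is known to reach its target genes. The 250 bases before each RefSeq start (GRCm38.p6) were searched on both strands for the ISRE core (GAAA, a gap of NN, then GAAA again) and for the GAS form TTCNNNGAA, and matches are in capitals with 15 bases on each side, read 5′ to 3′ on the strand of the gene.
Stat2, chr10:128270261-128270300, plus strand: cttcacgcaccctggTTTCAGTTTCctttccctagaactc
Irf1, chr11:53769909-53769947, plus strand: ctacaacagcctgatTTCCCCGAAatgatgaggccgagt
Ifit1, chr19:34640770-34640828, plus strand: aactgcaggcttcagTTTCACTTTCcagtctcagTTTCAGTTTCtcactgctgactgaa
Ifit3, chr19:34583358-34583431, plus strand: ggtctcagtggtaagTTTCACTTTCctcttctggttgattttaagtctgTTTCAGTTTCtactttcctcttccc
Isg15, chr4:156200860-156200911, minus strand: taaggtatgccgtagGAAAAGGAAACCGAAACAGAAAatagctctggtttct
Gbp2, chr3:142620589-142620628, plus strand: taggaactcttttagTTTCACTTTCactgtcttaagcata
Gbp3, chr3:142559984-142560029, plus strand: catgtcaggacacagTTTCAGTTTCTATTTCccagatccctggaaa
The ISRE core was found in 6 of the 9 genes, against 978 of all 32851 promoters (2.98%) and 3.19% of the 14148 table genes with a promoter. Stat2 and Gbp2 held 1 match each, Ifit1, Ifit3 and Gbp3 held 2 each, and Isg15 held 3 with 2 overlapping pairs; both matches of Gbp3 overlapped. Irf1 alone of the 9 held the GAS form, which was present in 7.02% of all promoters. The matches lay closest to the start in Gbp3, 45 to 30 bases before it, and farthest in Stat2, 222 to 213 bases before it. Neither form was found in the windows of Irf7 and Irf9, which says only that these letters are not in these windows. These matches describe the sequence and do not show binding.

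The genes lie, on GRCm38, at chr10:128270498-128292853 (Stat2), chr11:53770014-53778374 (Irf1), chr7:141263183-141266499 (Irf7), chr14:55603985-55610030 (Irf9), chr19:34640889-34650009 (Ifit1), chr19:34583119-34588982 (Ifit3), chr4:156199424-156200818 (Isg15), chr3:142620663-142638008 (Gbp2) and chr3:142560016-142573213 (Gbp3). Ifit1 and Ifit3 lie close together on chromosome 19, as do Gbp2 and Gbp3 on chromosome 3. Ifit3 shares 1700 aligned bases at 97.8% identity with Ifit3b, so the split of reads between these copies is uncertain. Exons overlap a gene on the opposite strand in Irf1 (Gm17334, 135 bases), Irf7 (Phrf1, 45 bases) and Gbp2 (Mir6381, 24 bases), and a gene on the same strand in Irf9 (Rnf31, 123 bases); whether counting used strand is not given in the sources used here.

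The values are the authors' group levels, which are normalized read counts averaged over the replicates of a group, with no value per sample. They are therefore printed with no SD. The tables list 17215 to 17876 genes each. The levels had been moderated toward equality within a table: the genes with the lowest averages fell on 6 steps in every table, as for single reads in 6 libraries, yet their 2 levels differed by at most 0.116 to 0.439 on the log2 scale depending on the table. Folds of weakly counted genes are thus understated, and folds of well counted genes may be as well. Emd, the gene deleted in EMD-/y, stood between 987 and 1962 in wildtype and between 0.457 and 3.52 in EMD-/y, and it reached at most 2.67 in the 4 transduced lines, so mouse Emd does not show the transduced emerin and checks the null background only. All 8 myogenic markers reached a level of 10, with group sums of 31500 to 226500. So did 4 of 7 macrophage, 4 of 5 endothelial and 5 of 6 fibroblast markers. The same level was reached by 1 of 4 adipocyte markers (group sums 1.17 to 10.8) and by 0 of 6 T and NK cell markers. Beside the myogenic sums, macrophage markers were low (group sums 88.9 to 343, highest in Q133H on day 2, with Adgre1 below 1 in every group). Endothelial (16.5 to 49.7, Emcn below 1) and T and NK cell markers (1.14 to 3.51) were low as well, and fibroblast markers summed to between 1348 and 20050. Their part in the results was not tested. In bulk RNA, fewer cells of a type and less RNA per cell cannot be told apart.

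**Figure D1:**
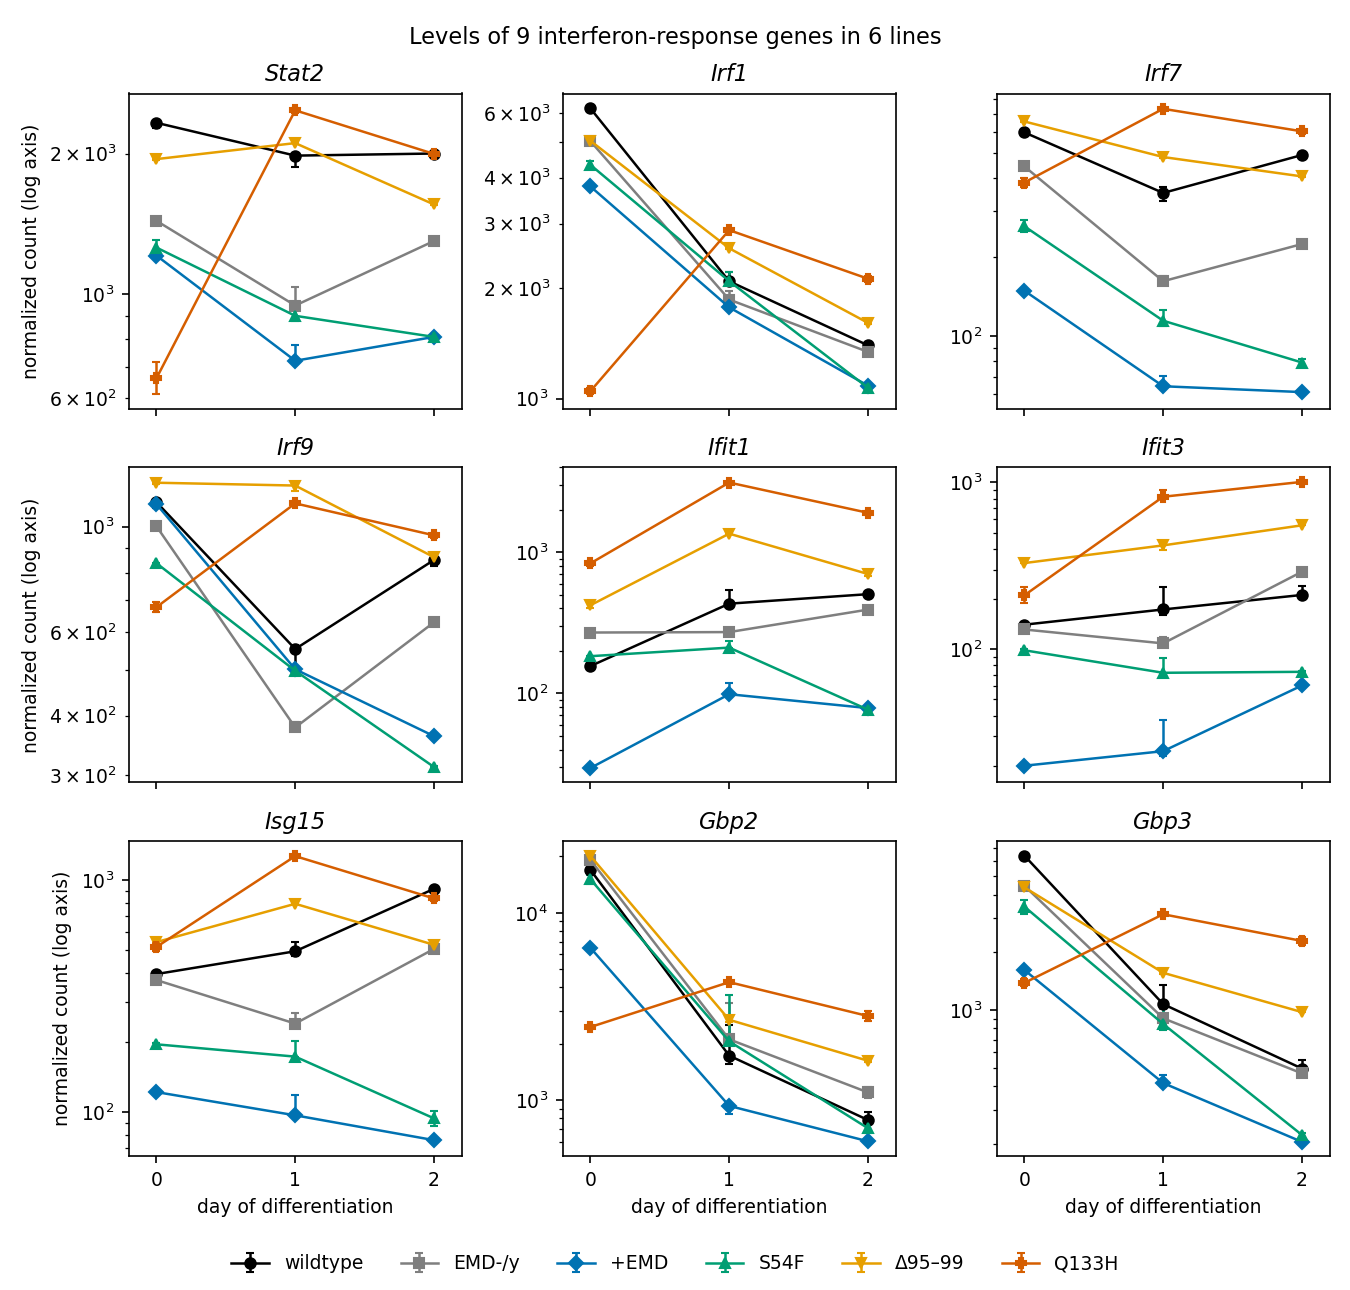
Level of each of the 9 genes (authors' group value on 1 common scale, log axis) by day of differentiation, 1 line of points per cell line; bars run from the lowest to the highest value over the tables that hold the group, not over replicates. Gbp2 and Gbp3 start high and fall by day 1 in 5 lines, while in Q133H they start lowest and are higher on day 1.

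To show the 18 groups side by side, the levels were put on 1 scale through the groups that tables share. A gene's level for 1 group then differed between tables by a median of 1.034-fold for the 9 genes and by at most 1.787-fold, for Gbp2 in S54F on day 1. The plot of levels by day gives these values. In the order of the 18 groups, neighbours had overlapping table ranges in 39 of 153 pairs over the 9 genes, from 3 of 17 for Irf7, Ifit1 and Ifit3 to 6 of 17 for Stat2 and Gbp2. Those neighbours cannot be put in order, and since these ranges do not hold replicate error, other close neighbours may not be ordered either.

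Stat2, the ISGF3 subunit best known from type I interferon signalling, stood at days 0, 1 and 2 in turn at 2330.0, 1981 and 2002 in wildtype, 1437, 946 and 1300.5 in EMD-/y, and 1210.4, 720.2 and 810.1 in +EMD. The same 3 days gave 1259, 899 and 810.1 in S54F, 1948, 2108 and 1557 in Δ95–99, and 660.3, 2478 and 1998 in Q133H. Stat2 moved least of the 9 genes, with 3.75-fold between the highest group, Q133H on day 1, and the lowest, Q133H on day 0. Irf9, the DNA-binding subunit of ISGF3, spanned 3.97-fold and stood in day order at 1126, 552 and 851 in wildtype, 1002, 378 and 629 in EMD-/y, and 1115, 501 and 362 in +EMD. Its levels were 838, 497 and 312 in S54F, 1237, 1220.0 and 862 in Δ95–99, and 677, 1119 and 959 in Q133H. Irf9 was highest in Δ95–99 on days 0 and 1 and lowest in S54F on day 2.

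Irf1, a transcription factor induced early by γ-interferon, stood in day order at 6183, 2088 and 1396 in wildtype, 5033, 1862 and 1340.3 in EMD-/y, and 3787, 1773 and 1084 in +EMD. The remaining lines gave 4337, 2089.6 and 1069.7 in S54F, 5043, 2568 and 1608 in Δ95–99, and 1047, 2879 and 2121 in Q133H. On day 0 the level of Irf1 was between 3787 and 6183 in 5 lines and 1047 in Q133H, which lay beside S54F and +EMD on day 2 at the low end of the 18 groups. Irf7, which amplifies type I interferon expression, gave 597, 351 and 489.7 in wildtype, 443, 162 and 224 in EMD-/y, and 149, 64.3 and 61.1 in +EMD. It gave 262, 114 and 79.2 in S54F, 657, 481 and 406 in Δ95–99, and 385, 735 and 603 in Q133H. The 12.02-fold span of Irf7 ran from +EMD on day 2 to Q133H on day 1.

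Ifit1 had the widest span of the 9 genes, 105-fold. Its levels in day order were 156, 432 and 505 in wildtype, 269.9, 272 and 392 in EMD-/y, and 29.6, 98.6 and 78.6 in +EMD. They were 183, 211 and 76.7 in S54F, 421, 1355 and 701 in Δ95–99, and 834, 3119 and 1903 in Q133H. +EMD held the lowest Ifit1 level on day 0 and day 1, S54F and +EMD the lowest on day 2, and Q133H the highest on all 3 days. Ifit3 spanned 50.4-fold, with 140.2, 173 and 211 in wildtype, 131, 108 and 291 in EMD-/y, and 19.99, 24.4 and 60.6 in +EMD. Its other levels were 98.5, 72.2 and 73.1 in S54F, 328, 419 and 553 in Δ95–99, and 210.3, 821 and 1008 in Q133H. +EMD was again lowest on all 3 days. The Ifit3 values differed between tables for wildtype on day 1 (161 to 235) and for +EMD on day 1 (22.9 to 37.5).

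Isg15, whose product is joined to other proteins in the antiviral state, stood in day order at 395, 495 and 920.0 in wildtype, 372, 241 and 507 in EMD-/y, and 122, 96.97 and 75.8 in +EMD. It stood at 196, 174 and 94.1 in S54F, 542, 793 and 527 in Δ95–99, and 516, 1274 and 836 in Q133H. The highest group was Q133H on day 1 and the lowest +EMD on day 2, 16.8-fold apart. Ifit1, Ifit3, Isg15 and Irf7 shared this extreme: for each, +EMD held the lowest of the 18 groups and Q133H the highest.

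Gbp2 reached the highest levels of the 9 genes. It stood in day order at 16968, 1731 and 785 in wildtype, 19182, 2115 and 1102 in EMD-/y, and 6514, 934 and 604 in +EMD. The other lines gave 15124, 2063 and 709 in S54F, 20136, 2688 and 1625 in Δ95–99, and 2459, 4269 and 2815 in Q133H. The day 1 values of Gbp2 are the least certain of all, as tables gave 1557 to 2522 for wildtype, 2104 to 3299 for EMD-/y and 2041 to 3647 for S54F. Gbp3 stood at 6388, 1072 and 494 in wildtype, 4446, 904 and 466 in EMD-/y, and 1616, 415 and 205 in +EMD. It stood at 3462, 845 and 222 in S54F, 4361, 1562 and 974 in Δ95–99, and 1384, 3156 and 2291 in Q133H. Tables gave 1056 to 1342 for Gbp3 in wildtype on day 1 and 789.7 to 1065 in S54F on day 1. From the highest to the lowest group Gbp2 spanned 33.3-fold and Gbp3 31.2-fold. In Q133H the day 0 level of both was below that of every other line, and the day 2 level was above that of every other line.

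The first question was how the genes changed from day 0 to day 1, when the medium was exchanged. Per the methods, the serum, the temperature and the carbon dioxide level changed at the same step. Their effects and that of leaving out γ-interferon cannot be told apart. Each line's ratio was taken within its own table as log2 of (later level + 1) over (earlier level + 1). The mean of the 6 lines was tested with limma over 13231 genes, with Benjamini-Hochberg adjusted p-values and the spread between lines as error. The 6 lines are not fully independent, as all but wildtype are EMD-/y cells or were made from them. Every SE given here is limma's moderated SE. It draws a gene's own spread toward that of all genes, so it differs from the plain SE of the printed ratios. Gbp2 and Gbp3 fell and Ifit1 rose. These are 3 of 9 genes past an adjusted p of 0.05, against 51.5% of all genes tested (25.1% higher and 26.4% lower), so the share of the 9 was below the background. Their median change was -0.60 on the log2 scale, against -0.01 over all genes.

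**Figure D2:**
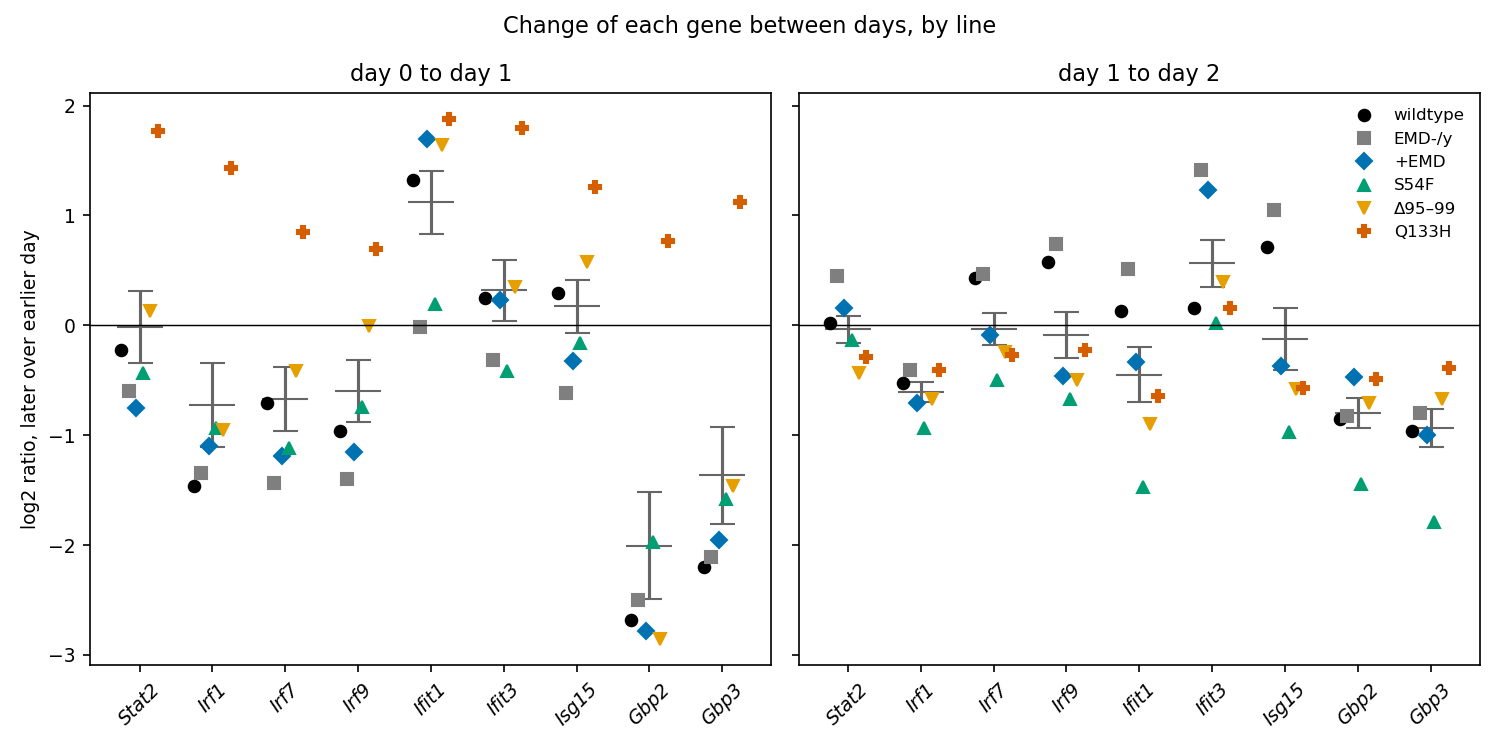
Log2 ratio of the later over the earlier day for each gene, from day 0 to day 1 and from day 1 to day 2. There is 1 point per cell line, and the grey dash and bars are the mean ± limma's moderated SE over the 6 lines. From day 0 to day 1 the Q133H point lies above the other lines for every gene. From day 1 to day 2 Irf1, Gbp2 and Gbp3 lie below 0 in all 6 lines.

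For Gbp2 the log2 ratio of day 1 over day 0 was -2.68 in wildtype, -2.503 in EMD-/y, -2.78 in +EMD, -1.97 in S54F, -2.86 in Δ95–99, and 0.77 in Q133H. Gbp2 was lower in 5 of 6 lines, and the mean was -2.004 ± 0.49 (SE, n = 6), adjusted p = 0.0138, a 4.01-fold fall. In wildtype, EMD-/y and S54F the levels on 1 scale fell further than these ratios. They went from 16968 to 1731, 19182 to 2115 and 15124 to 2063 in turn, so the tested fall may be understated. For Gbp3 the ratios were -2.20 in wildtype, -2.11 in EMD-/y, -1.95 in +EMD, -1.58 in S54F, -1.46 in Δ95–99, and 1.13 in Q133H. Gbp3 was also lower in 5 of 6 lines, by a mean of -1.36 ± 0.44 (SE, n = 6), adjusted p = 0.0379, or 2.57-fold. The Gbp3 call did not hold when any line but Q133H was left out, with adjusted p = 0.0956 without wildtype, 0.0999 without EMD-/y, 0.0979 without +EMD, 0.0923 without S54F and 0.0837 without Δ95–99. In the 4 transduced lines alone, which include Q133H, neither gene passed (Gbp2 -1.71, adjusted p = 0.102, and Gbp3 -0.97, adjusted p = 0.223).

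For Ifit1 the ratios were 1.32 in wildtype, -0.02 in EMD-/y, 1.70 in +EMD, 0.20 in S54F, 1.64 in Δ95–99, and 1.87 in Q133H. The 5 positive values ranged widely, and the mean was 1.12 ± 0.29 (SE, n = 6), adjusted p = 0.0173. The call was lost without +EMD (adjusted p = 0.0529) and without Δ95–99 (adjusted p = 0.0509). Ifit3 (0.32, adjusted p = 0.375) and Isg15 (0.17, adjusted p = 0.577) did not pass.

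Q133H was the one line in which all 9 genes had a positive log2 ratio, while all 9 had a negative one in EMD-/y. Ifit1 in EMD-/y was near no change, at -0.02. The median over all genes was -0.009 in Q133H and -0.003 in EMD-/y. For Irf1 the ratios were -1.46 in wildtype, -1.34 in EMD-/y, -1.10 in +EMD, -0.93 in S54F, -0.95 in Δ95–99, and 1.43 in Q133H, with a mean of -0.73 ± 0.38 (SE, n = 6), adjusted p = 0.15. Q133H alone was positive. Over the other 5 lines, 6 of the 9 genes passed the test, against 54% of all genes: Ifit1 was higher, and Gbp2 (-2.56), Gbp3 (-1.86), Irf1 (-1.16, adjusted p = 0.000538), Irf7 (-0.97, adjusted p = 0.00381) and Irf9 (-0.85, adjusted p = 0.0148) were lower. Over all 6 lines Irf7 (-0.67, adjusted p = 0.0956), Irf9 (-0.60, adjusted p = 0.116) and Stat2 (-0.02, adjusted p = 0.969) did not pass. Within Q133H, 6 of the 9 genes were at least 2-fold higher on day 1 (5.77% of all genes) and 0 were at least 2-fold lower (6.37% of all genes).

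From day 1 to day 2, both without listed γ-interferon, Irf1, Gbp2 and Gbp3 fell. These 3 of 9 were all lower, against 55.1% of 13242 genes called (27.7% lower), and the median of the 9 was -0.12. The ratio of Irf1 was -0.53 in wildtype, -0.41 in EMD-/y, -0.70 in +EMD, -0.94 in S54F, -0.67 in Δ95–99, and -0.40 in Q133H, lower in 6 of 6 lines with a mean of -0.61 ± 0.09 (SE, n = 6), adjusted p = 0.0015. Gbp2 gave -0.85 in wildtype, -0.83 in EMD-/y, -0.47 in +EMD, -1.45 in S54F, -0.71 in Δ95–99, and -0.49 in Q133H. Its mean was -0.80 ± 0.13 (SE, n = 6), adjusted p = 0.00257, again with 6 of 6 lines lower. Gbp3 gave -0.96 in wildtype, -0.80 in EMD-/y, -1.002 in +EMD, -1.79 in S54F, -0.67 in Δ95–99, and -0.39 in Q133H, and a mean of -0.94 ± 0.17 (SE, n = 6), adjusted p = 0.00352. The same count of 3 was called when each line was left out in turn, against 42.8% to 60.1% of all genes.

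Ifit3 was higher on day 2 in 6 of 6 lines, with ratios of 0.16 in wildtype, 1.41 in EMD-/y, 1.23 in +EMD, 0.03 in S54F, 0.39 in Δ95–99, and 0.16 in Q133H. Its mean of 0.56 ± 0.21 (SE, n = 6), adjusted p = 0.0565, did not pass. For Ifit1 (-0.45), Isg15 (-0.12), Irf9 (-0.09), Stat2 (-0.04) and Irf7 (-0.03) the adjusted p lay between 0.162 and 0.860.

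In Ifit1, Isg15, Irf9, Stat2 and Irf7 the mean hid movement in opposite directions. For Stat2, 3 of 6 lines went each way, from -0.44 to 0.45. The other 4 genes split by whether the line had been transduced. Isg15 gave 0.71 in wildtype, 1.05 in EMD-/y, -0.37 in +EMD, -0.97 in S54F, -0.58 in Δ95–99, and -0.57 in Q133H. Irf9 gave 0.58 in wildtype, 0.74 in EMD-/y, -0.46 in +EMD, -0.67 in S54F, -0.50 in Δ95–99, and -0.23 in Q133H. Wildtype and EMD-/y, the lines that were not transduced, were positive for both genes, and the 4 transduced lines were negative. Irf7 and Ifit1 split the same way, so that 4 of 9 genes did so, against 4.58% of all genes. Tested after this was seen, the transduced minus the other lines came to -1.50 ± 0.20 (SE, 4 against 2 lines, adjusted p = 0.0450) for Isg15, -1.12 ± 0.16 (adjusted p = 0.0523) for Irf9, -1.16 ± 0.32 (adjusted p = 0.191) for Ifit1 and -0.72 ± 0.15 (adjusted p = 0.138) for Irf7. Isg15 was thus 1 of 9 genes called, against 0.665% of all genes. The 3 mutant lines were also kept in puromycin and, per the methods, plated more densely than wildtype and EMD-/y, so that in them transduction, puromycin and plating cannot be told apart. The +EMD line moved with them. Per the methods it was selected at a lower puromycin dose than the mutant lines and plated like them for immunofluorescence. Whether +EMD was kept in puromycin in the RNA-seq cultures, and its plating density there, are not given in the sources used here. From day 0 to day 1 no gene of the 9 split this way, against 6.67% of all genes.

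Emerin status was compared by setting the change in wildtype and +EMD, the lines with wildtype emerin, against the other 4 lines. limma called 0 of all genes tested in either transition (0%), with 258 genes (1.95%) and 217 genes (1.64%) at an unadjusted p under 0.05 and 0 of the 9 among them; with a trended prior limma also called 0, with 203 and 178 genes at an unadjusted p under 0.05.

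Each line was then compared with wildtype on the same day, and the mean of the 3 days was tested with limma, with the spread between days as error. The lines share the wildtype groups, so these comparisons are not independent. +EMD stood lowest: 6 of the 9 genes were called, all lower, against 11% of all genes called (5.87% lower), and all 9 ratios were negative on all 3 days. EMD-/y, S54F, Δ95–99 and Q133H each had 1 of 9 called, against 10.2%, 6.08%, 4.31% and 3.02% of all genes. The call was lower in EMD-/y and S54F (4.06% and 2.95% of all genes) and higher in Δ95–99 and Q133H (2.23% and 1.31%). Over the 135 ratios of the 9 genes in these 15 tables, 34 were at least 2-fold lower and 16 at least 2-fold higher, against 8.17% and 7.94% of all ratios.

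**Figure D3:**
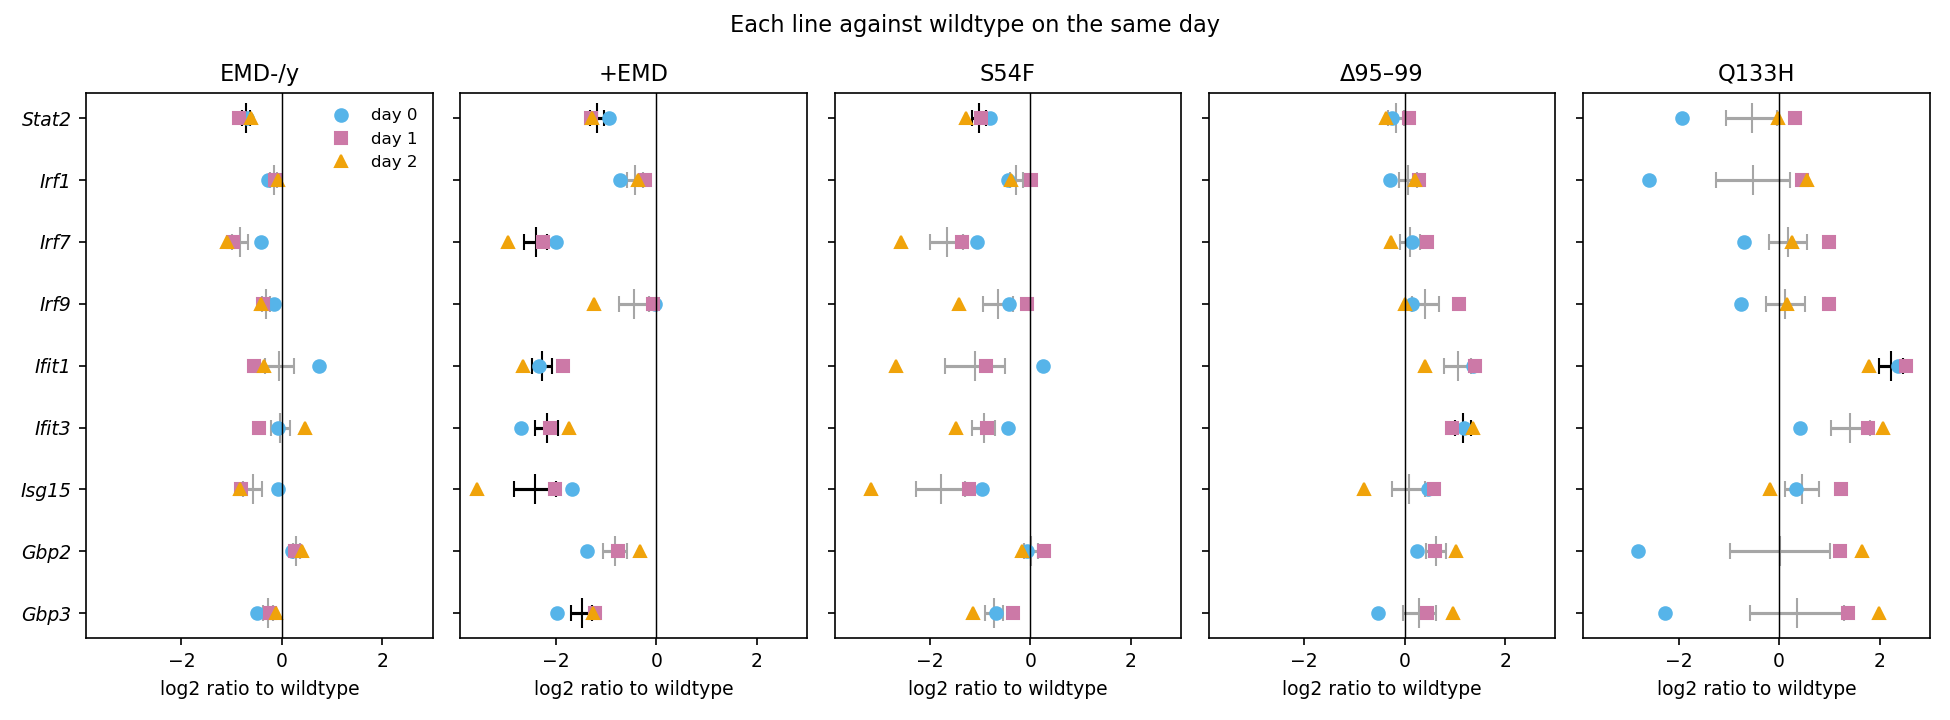
Log2 ratio of each line over wildtype for the 9 genes, 1 panel per line, with 1 point per day. The mean ± limma's moderated SE over the 3 days is in black where the adjusted p is under 0.05 and in grey otherwise. All +EMD points lie below 0, and the day 0 points of Q133H lie far below its day 1 and day 2 points for Irf1, Gbp2, Gbp3 and Stat2.

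In +EMD the log2 ratio of Ifit1 to wildtype was -2.33 at day 0, -1.86 at day 1, and -2.65 at day 2, with a mean of -2.28 ± 0.20 (SE, n = 3), adjusted p = 0.013. Isg15 gave -1.67 at day 0, -2.01 at day 1, and -3.57 at day 2, with a mean of -2.42 ± 0.42 (SE, n = 3), adjusted p = 0.0433. Irf7 gave -1.99 at day 0, -2.25 at day 1, and -2.96 at day 2, with a mean of -2.40 ± 0.23 (SE, n = 3), adjusted p = 0.0161. These genes were therefore well below wildtype on each day. Ifit3 (-2.18 ± 0.23 (SE, n = 3), adjusted p = 0.019), Gbp3 (-1.49 ± 0.21 (SE, n = 3), adjusted p = 0.0323) and Stat2 (-1.18 ± 0.15 (SE, n = 3), adjusted p = 0.0259) were also called lower. Irf1 (-0.43), Irf9 (-0.44) and Gbp2 (-0.82) did not pass, with adjusted p between 0.103 and 0.369. With 2 days left in the test, 2 genes passed without day 0, 0 without day 1 and 4 without day 2. Without day 1, 6 had an unadjusted p under 0.05 by limma (adjusted p from 0.0802 to 0.193), against 2494 of all 13205 genes tested. All genes called in these fits fell to 4.14%, 0.727% and 4.45%. The direction of all 6 was the same in each of these.

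Stat2 was the gene called in EMD-/y, where the ratio was -0.70 at day 0, -0.85 at day 1, and -0.61 at day 2, with a mean of -0.72 ± 0.08 (SE, n = 3), adjusted p = 0.0197. It was also the gene called in S54F, with -0.80 at day 0, -0.99 at day 1, and -1.28 at day 2 and a mean of -1.02 ± 0.14 (SE, n = 3), adjusted p = 0.0334. Stat2 was thus lower than wildtype on all 3 days in EMD-/y, +EMD and S54F. Its call was lost on leaving out any day in EMD-/y (adjusted p = 0.0615 without day 0, 0.140 without day 1 and 0.0552 without day 2) and in S54F without day 1 (0.209) or day 2 (0.121). Irf7 in EMD-/y gave -0.42 at day 0, -0.97 at day 1, and -1.10 at day 2 (mean -0.83, adjusted p = 0.0574). Without day 0, Irf7 and Isg15 passed in EMD-/y (adjusted p = 0.0311 and 0.0360).

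In S54F the distance from wildtype differed between days. Isg15 gave -0.97 at day 0, -1.23 at day 1, and -3.17 at day 2, with a mean of -1.79 ± 0.49 (SE, n = 3), adjusted p = 0.127. Ifit1 gave 0.25 at day 0, -0.88 at day 1, and -2.68 at day 2, with a mean of -1.10 ± 0.59 (SE, n = 3), adjusted p = 0.346. On day 2, 7 of the 9 genes were at least 2-fold lower in S54F than in wildtype (4.73% of all genes). Neither mean passed the test.

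In Δ95–99, Ifit3 was called higher, at 1.19 at day 0, 0.94 at day 1, and 1.36 at day 2, with a mean of 1.16 ± 0.16 (SE, n = 3), adjusted p = 0.0423. Ifit1 stood at 1.37 at day 0, 1.40 at day 1, and 0.39 at day 2, with a mean of 1.06 ± 0.26 (SE, n = 3), adjusted p = 0.116. The Ifit3 call was lost without day 0 (adjusted p = 0.0789), day 1 (0.156) or day 2 (0.188). The median of the 9 means was 0.29.

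In Q133H, Ifit1 was called higher, at 2.36 at day 0, 2.53 at day 1, and 1.80 at day 2, with a mean of 2.23 ± 0.23 (SE, n = 3), adjusted p = 0.0282. The call was lost without day 1 (adjusted p = 0.212) or day 2 (0.0959). Gbp2 was -2.81 at day 0, 1.21 at day 1, and 1.65 at day 2. Gbp3 was -2.27 at day 0, 1.37 at day 1, and 1.998 at day 2. Irf1 was -2.59 at day 0, 0.45 at day 1, and 0.57 at day 2. These 3 genes were thus below wildtype on day 0 and above it afterwards, and their means of 0.02 ± 1.00 for Gbp2, 0.37 ± 0.93 for Gbp3 and -0.52 ± 0.73 for Irf1 (SE, n = 3) did not pass. Without day 0, 12.3% of all genes (4.15% higher) and 3 of the 9 passed in Q133H, all 3 higher: Ifit1, Ifit3 (1.92, adjusted p = 0.0244) and Gbp3 (1.68, adjusted p = 0.0410).

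The wider pathway was described by 138 genes besides the 9, which are 7 lists and 7 interferon genes. From day 0 to day 1, 15 of the 122 tested were higher and 43 lower, with a median of -0.48, against 25.1% higher and 26.4% lower over all genes. From day 1 to day 2, 17 of 120 were higher and 58 lower, with a median of -0.31, against 27.4% higher and 27.7% lower. The first count moved with the lines used: without Q133H 90 of the pathway genes were called in place of 58 (54% of all genes in place of 51.5%), and without one of wildtype, EMD-/y, S54F or Δ95–99 the count was 35, 34, 38 or 37 (45.6%, 41.4%, 40.9% or 42.5% of all genes). Single pathway genes were not refitted in this way. None of the 7 interferon genes passed the filter on low levels, and Ifng, Ifnb1 and Ifna4 were below 1 where listed.

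**Figure D4:**
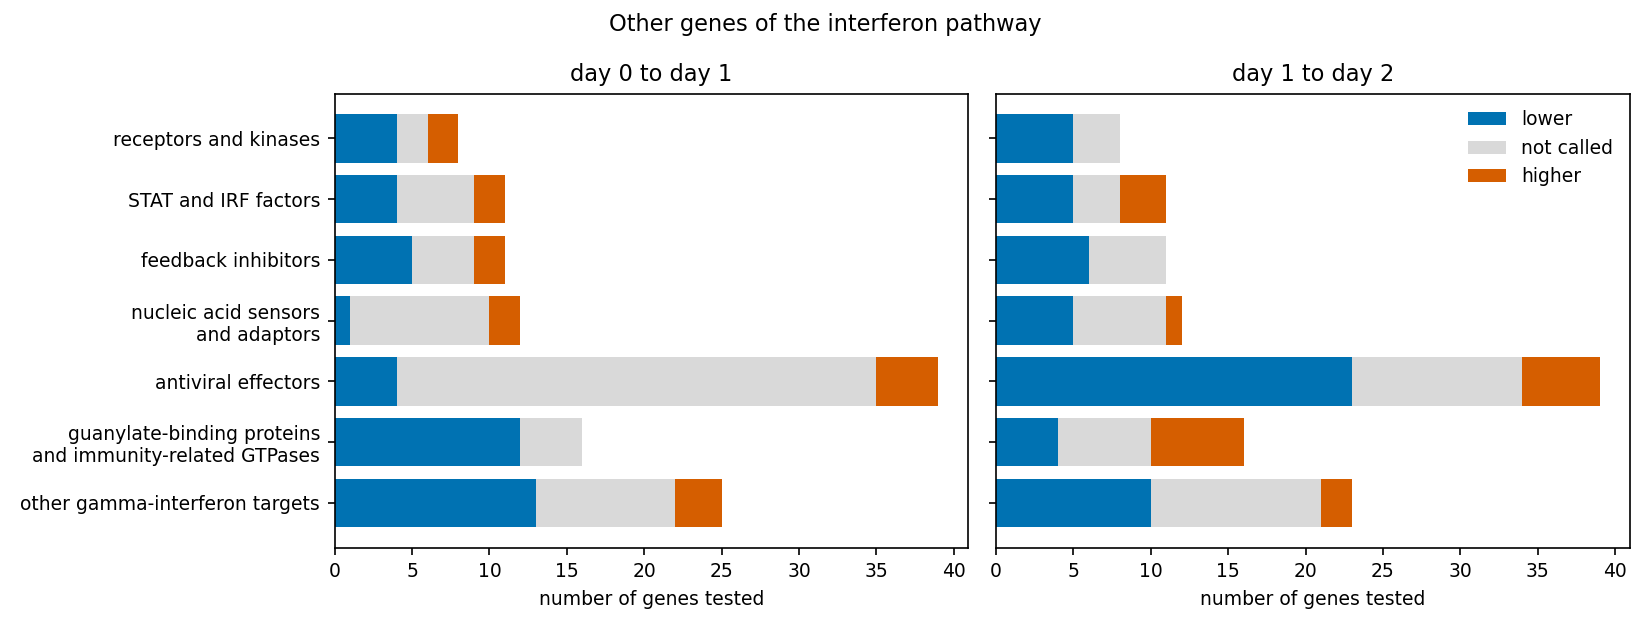
Number of genes in each of 7 interferon pathway lists that were lower, not called or higher (adjusted p under 0.05), from day 0 to day 1 and from day 1 to day 2. The guanylate-binding proteins and immunity-related GTPases had 12 of 16 genes lower and 0 higher in the first transition, and the antiviral effectors had 23 of 39 lower in the second.

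Of the guanylate-binding proteins and immunity-related GTPases, to which Gbp2 and Gbp3 belong by function, 12 of 16 fell and 0 rose from day 0 to day 1. Gbp4 changed by -2.09 ± 0.36 (SE, n = 6), adjusted p = 0.0036, and Gvin1, a large inducible GTPase, by -2.002 ± 0.48 (SE, n = 6), adjusted p = 0.0128. From day 1 to day 2 the list went both ways, with 6 higher and 4 lower. Gbp11 rose by 2.90 ± 0.26 (SE, n = 6), adjusted p = 0.000362, and Gbp10 by 2.10 ± 0.33 (SE, n = 6), adjusted p = 0.00196, while Gbp2 and Gbp3 fell. These genes are close relatives, and whether reads were split between them was not tested.

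Among the other γ-interferon targets 13 of 25 fell and 3 rose in the first transition. Cxcl9, a chemokine known for its dependence on γ-interferon, changed by -3.25 ± 0.49 (SE, n = 6), adjusted p = 0.00202, and Icam1, an adhesion molecule, by 2.84 ± 0.26 (SE, n = 6), adjusted p = 0.000353. In the second transition 10 of 23 fell and 2 rose. Cxcl10, a related chemokine, changed by -1.36 ± 0.21 (SE, n = 6), adjusted p = 0.00177, and Cd74, the invariant chain of class II antigen presentation, by -1.07 ± 0.19 (SE, n = 6), adjusted p = 0.00331.

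The antiviral effectors, which hold the functional relatives of Ifit1, Ifit3 and Isg15, had 4 of 39 higher and 4 lower from day 0 to day 1. Samhd1, which depletes nucleotides, changed by -1.67 (adjusted p = 0.0077), and Pml, the organizer of nuclear bodies, by 1.24 (adjusted p = 0.000486). From day 1 to day 2, 23 of 39 fell and 5 rose. The Schlafen genes Slfn8 (-1.85, adjusted p = 0.000645) and Slfn9 (-1.76, adjusted p = 0.000685) fell most in this list.

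Among the STAT and IRF factors besides the 9, 2 of 11 rose and 4 fell from day 0 to day 1. Batf2 changed by -3.08 (adjusted p = 0.0055). From day 1 to day 2, 3 rose and 5 fell, with Irf5 at -1.17 and Irf8 at -1.07 (adjusted p = 0.0018 and 0.00198).

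Of the 8 receptors and kinases, 2 rose and 4 fell in the first transition and 5 fell in the second. Jak2, the kinase of the γ-interferon receptor, was lower in both (-0.76, adjusted p = 0.00487, and -0.61, adjusted p = 0.00219), and Ifngr2, a receptor chain, rose by 0.78 (adjusted p = 0.000685) in the first. Il10rb, a chain shared with type III interferon receptors, changed by -0.82 in the second (adjusted p = 0.000935). Of the 11 feedback inhibitors 2 rose and 5 fell, then 0 rose and 6 fell. Socs1, the inhibitor of JAK kinases, changed by -2.46 ± 0.41 (SE, n = 6), adjusted p = 0.003, in the first transition. Pias3, an inhibitor of STAT binding, rose by 0.64 (adjusted p = 0.00198) and then changed by -0.92 (adjusted p = 0.00231), and Trim21, an antibody receptor in the cytosol, changed by -0.84 (adjusted p = 0.0027) in the second.

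The nucleic acid sensors and adaptors had 2 of 12 higher and 1 lower, then 1 higher and 5 lower. Ifi204 changed by -1.29 and Ikbke, a kinase that acts on IRF factors, by 0.72 in the first transition (adjusted p = 0.01 and 0.0136). Cgas, the sensor of cytosolic DNA, changed by -1.13 and Myd88, an adaptor of Toll-like receptors, by -0.75 in the second (adjusted p = 0.000664 and 0.00497).

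Against wildtype, the pathway genes called higher and lower were 3 and 14 of 120 in EMD-/y, 2 and 25 of 117 in +EMD, 1 and 13 of 118 in S54F, 5 and 5 of 122 in Δ95–99, and 2 and 3 of 121 in Q133H. The shares of all genes called higher and lower were 6.15% and 4.06% in EMD-/y, 5.13% and 5.87% in +EMD, 3.13% and 2.95% in S54F, 2.23% and 2.08% in Δ95–99, and 1.31% and 1.71% in Q133H. The sum of both directions fell, on leaving out day 1, to 2 in EMD-/y, 1 in +EMD, 0 in S54F, 3 in Δ95–99 and 0 in Q133H, and it rose to 23 in Q133H without day 0. All genes called without day 1 fell likewise, to 1.46%, 0.727%, 0.679%, 0.736% and 0% in the same order, with 1401 genes in Q133H at an unadjusted p under 0.05 by limma, and they rose to 12.3% in Q133H without day 0. Casp1, the protease that activates interleukin-1β, was among the 3 largest differences in 4 lines: -2.47 ± 0.10 (SE, n = 3), adjusted p = 0.00281, in EMD-/y, -5.09 ± 0.24 (SE, n = 3), adjusted p = 0.0033, in +EMD, -3.83 ± 0.15 (SE, n = 3), adjusted p = 0.00227, in Δ95–99, and -6.18 ± 0.38 (SE, n = 3), adjusted p = 0.00776, in Q133H. Slfn2, a Schlafen gene of immune cells, was higher in EMD-/y (3.27 ± 0.14 (SE, n = 3), adjusted p = 0.0032), S54F (2.67 ± 0.11 (SE, n = 3), adjusted p = 0.00245) and Δ95–99 (3.91 ± 0.33 (SE, n = 3), adjusted p = 0.0154).

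Other genes singled out by size differed by line. Irgm2, an immunity-related GTPase, was higher in EMD-/y by 2.48 ± 0.34 (SE, n = 3), adjusted p = 0.0312. Ifi44 was lower in +EMD (-4.04, adjusted p = 0.00524) and S54F (-2.35, adjusted p = 0.0241), and Cxcl9 was lower in S54F (-2.5, adjusted p = 0.00966). Serping1, the inhibitor of complement C1, was lower in +EMD (-3.70, adjusted p = 0.00134) and Q133H (-8.22, adjusted p = 0.00226). Trim30a was higher in Δ95–99 (4.29, adjusted p = 0.00633) and Q133H (3.56, adjusted p = 0.0103).

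The 9 genes did not follow 1 profile over the 18 groups. The closest pairs were Gbp2 with Gbp3 (Pearson r = 0.936), Gbp2 with Irf1 (0.93), Ifit1 with Ifit3 (0.927) and Isg15 with Irf7 (0.917), and the least alike were Ifit1 with Irf1 (-0.04), Ifit3 with Irf1 (0.01) and Gbp2 with Ifit1 (0.04). Irf7 was closest to the mean of the other 8 genes (r = 0.948) and Irf1 farthest (r = 0.559). These r values are over log2 levels of 18 groups, which share lines and days, and are given as a description.

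**Figure D5:**
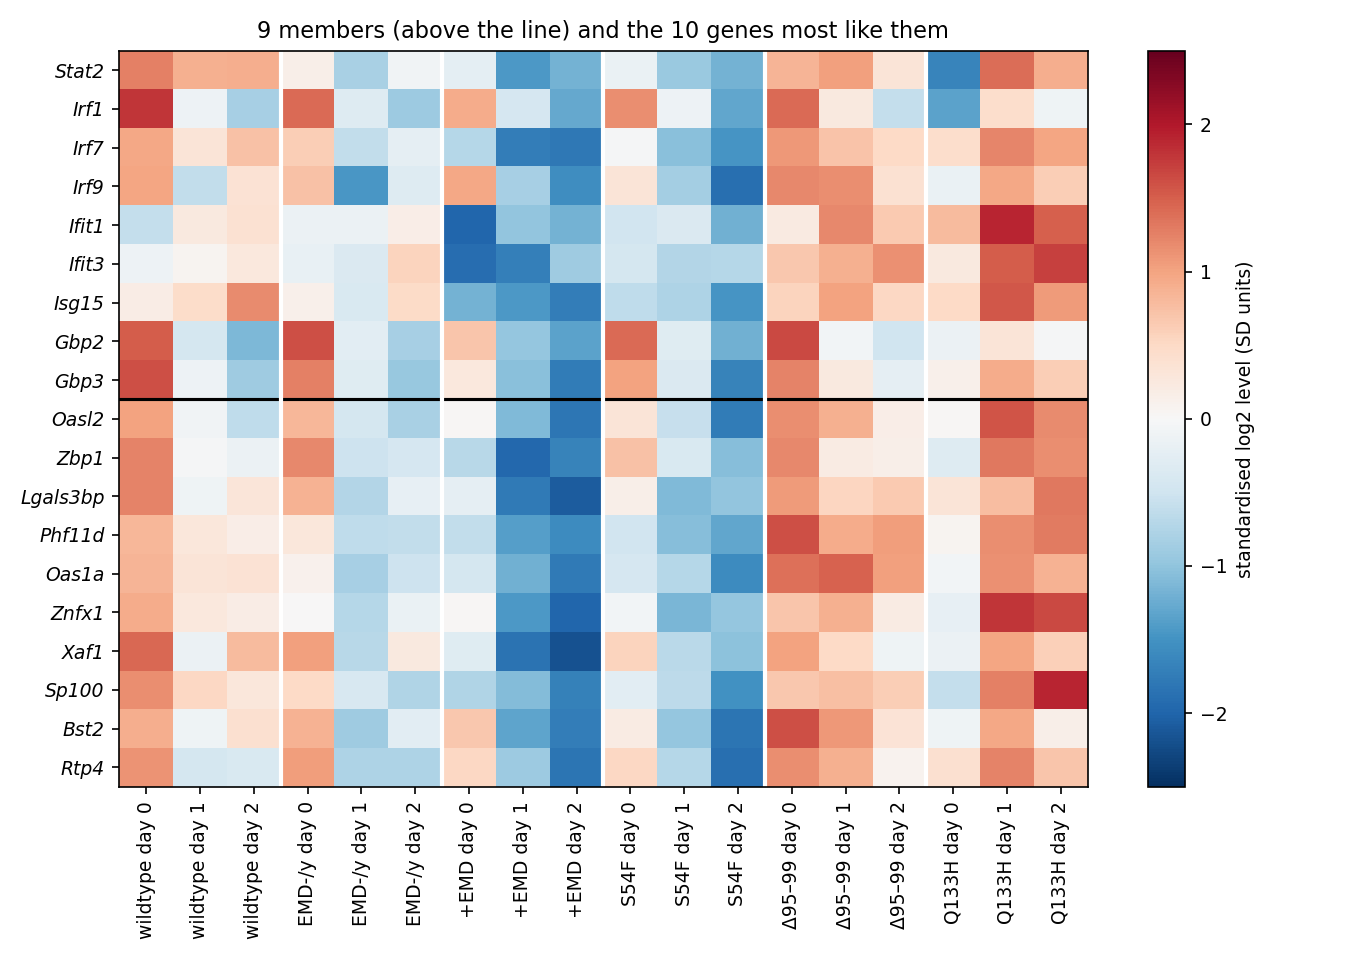
Heat map of log2 level, centred and divided by its SD for each gene, over the 18 groups, with the 9 genes above the line and the 10 genes most like their mean below it. Irf1, Gbp2 and Gbp3 are higher on day 0 than on days 1 and 2 in each line but Q133H, while the 10 genes and Irf7 are lower in +EMD than in Q133H on days 1 and 2.

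The 10 genes whose profile was most like the mean of the 9, among 13233 ranked, were Oasl2 (r = 0.957), Zbp1 (0.944), Lgals3bp (0.940), Phf11d (0.934), Oas1a (0.933), Znfx1 (0.924), Xaf1 (0.924), Sp100 (0.923), Bst2 (0.920) and Rtp4 (0.920). Of these, 9 were in the pathway lists, the exception being Phf11d. The median r was 0.63 for the pathway genes ranked and 0.0031 for all genes.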

How the data were processed

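RNA-seq of 54 samples in 18 groups was sequenced and processed by BGI. The submitters' processing notes name HISAT2, mm10 and DESeq2, with no versions, and the methods add SOAPnuke read filtering. Libraries were poly-A selected. The deposited tables hold, for 2 groups each, the authors' normalized read counts averaged per group (unit signal, no value per sample), gene length, and the authors' own fold changes, p-values and up or down calls, which were not used. Depth per sample is unknown, and no interval for counting error could be given.

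From these signal values, log2((level + 1)/(level + 1)) was taken within each table, for genes with an average level of at least 10, and tested with limma 3.58.1 (R 4.3.3) over 6 lines or 3 days, with Benjamini-Hochberg adjustment over all genes and a threshold of 0.05. The p-values therefore measure spread between lines or days, not between replicates, and each SE is limma's moderated SE. Tables were normalized separately, and only levels shown side by side were put on 1 scale, through genes with levels of at least 200. The tests were checked on simulated data. Groups came from the labels. The members, lists and tests were chosen with earlier results of these data known. All 9 genes are named. Of the pathway lists, up to 2 genes per list and transition and up to 3 per line were named by the largest mean log2 ratio among those called, and the 10 genes most like the 9 by Pearson r, predicted genes left out. A gene that the rule named is not reported here. Promoters came from RefSeq (GRCm38.p6), and copies were sought with minimap2 2.31-r1302 (at least 200 aligned bases and 97% identity). Alternatives were other pseudocounts, filters, centring, a trended prior, and leaving out each line or day. Levels on 1 scale in place of within-table ratios, and the split by transduction, were added after seeing the data.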

Additional observations from a re-analysis of the deposited data

Results flagged for a closer look

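From day 0 to day 1, the log2 ratio in Q133H lay apart from the other 5 lines for 5 genes by Dixon's test on the gap to the nearest line. It was 1.77 for Stat2 against -0.75 to 0.13 in the others, 1.43 for Irf1 against -1.46 to -0.93, 1.80 for Ifit3 against -0.41 to 0.35, 0.77 for Gbp2 against -2.86 to -1.97, and 1.13 for Gbp3 against -2.20 to -1.46. The test was run on 18 changes, and chance marks about 1 in 20. Its share over all genes is not given here, so the 5 genes cannot be set against a background. Their values come from 1 line and are not independent of each other.

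From day 1 to day 2, 4 genes moved up in both lines that were not transduced and down in all 4 transduced lines. The difference, transduced minus not, was -1.50 for Isg15 (limma, adjusted p = 0.0450), -1.16 for Ifit1 (adjusted p = 0.191), -1.12 for Irf9 (adjusted p = 0.0523) and -0.72 for Irf7 (adjusted p = 0.138). This split was chosen after the values were seen.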

How the results depend on the processing

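No paired analysis was possible because the columns hold group values and carry no replicate numbers, and replicates could not be left out for the same reason. A line or a day was left out instead. Genes called ranged, on leaving out a line, from 5415 to 7146 (1 to 6 of the 9 genes) from day 0 to day 1 and from 5673 to 7958 (3 to 3) from day 1 to day 2. On leaving out a day they ranged from 193 to 767 (0 to 2) in EMD-/y, 96 to 587 (0 to 4) in +EMD, 90 to 822 (0 to 1) in S54F, 50 to 731 (0 to 0) in Δ95–99 and 0 to 1625 (0 to 3) in Q133H, where limma called 0 without day 1 with 1401 genes at an unadjusted p under 0.05.

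With the 2 lines that were not transduced alone, 3 changes from day 1 to day 2 reversed: Irf7 0.45, Irf9 0.66 and Isg15 0.88. The members called from day 0 to day 1 were 1 in the 4 transduced lines alone and 5 in the other 2 (42.4% and 50% of all genes). The next day's change gave 6, all lower, in the transduced lines and 6, 3 higher and 3 lower, in the others (40.3% and 54.2% of all genes). At an average level of at least 50, EMD-/y had 2 members called (9.71% of all genes), and 354 genes were called in Δ95–99 (3.05%) and 211 in Q133H (1.82%). With a trended prior, EMD-/y had 3 and S54F 2 members called (12.8% and 7.35% of all genes). Ifit3 passed as higher from day 1 to day 2 with a trended prior (adjusted p = 0.0497) and with levels on 1 scale (adjusted p = 0.0391). Either way 4 members were called, against 56% and 55.2% of all genes. With no filter, +EMD had 5 called and Δ95–99 had 0, against 7.12% and 3.2% of all genes called. In Δ95–99, 3 members had an unadjusted p under 0.05 by limma, against 3853 of all 16415 genes tested. Of the 54 member ratios from day 1 to day 2, 22 (40.7%) passed 1.5-fold, against 35.7% of all ratios, and 0 passed 4-fold, against 4.13%. At 4-fold, 17 of 135 (12.6%) against wildtype and 6 of 54 (11.1%) from day 0 to day 1 passed, against 6.1% and 4.67% of all ratios. The cause was not tested. Depth limits the levels of weakly counted genes, which were moderated.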
